A study of Mus musculus with 9 samples.

Results

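Livers of mice kept on their diets for 12 weeks were set against livers of mice kept on the same diets for 1 week. Of the 9 liver pools of the series, 8 were chosen for this comparison by their labels. They were 4 pools of 12 weeks and 4 pools of 1 week, with 1 pool in each group for each of 4 diets. The pool taken at week 0 has no counterpart on the other diets. It stayed out of the fit and is described at the end.

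Each pool held liver RNA of 5 male C57BL/6J mice and was measured on 1 array, an Affymetrix Mouse Gene 1.0 ST. The diets supplied 10% (low fat, LF) or 35% (high fat, HF) of the energy as fat and 15% (normal protein, NP) or 50% (high protein, HP) as protein, which gave the diets LF-NP and LF-HP, and HF-NP and HF-HP. All mice, those of week 0 included, had first eaten the LF-NP diet as a run-in, and all received a calibrated meal before the liver was removed. The labels give an age of 22 weeks for the mice of 12 weeks, an age of 13 weeks for the mice of 1 week and an age of 12 weeks for the mice of week 0. Since 12 weeks of diet after week 0 would give an age of 24 weeks, the labels leave the age of the 12-week mice unsettled. Time on the diet, age and the occasion of sampling cannot be told apart. A pooled sample gives no spread between mice. The standard errors below come from the differences between pools that duration, protein and fat level as additive terms leave over.

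Mice of these ages are young adults. Hepatocytes make most of the RNA of the liver, and in males the pulses of growth hormone maintain a sex-dependent programme in them, while resident macrophages (Kupffer cells) sit in the sinusoids on the endothelium. Fatty acid breakdown in hepatocytes is under the control of the nuclear receptor PPARA, which is active in fasting and on fat-rich food and lets fatty acids be oxidised in mitochondria and peroxisomes.

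The values are log2 expression estimates of 19938 genes, 1 probe set for each. Hepatocyte markers were the most abundant of the cell type lists, with a mean level of 13.00 to 13.03 in the 12-week pools and 12.97 to 13.05 in the 1-week pools. Markers of pancreas and muscle, tissues that could be cut out with the liver, had a mean level of 4.87 to 4.96 in the 12-week pools and 4.80 to 4.85 in the 1-week pools. Of the 17, the muscle genes Myl1, Ckm and Myh2 were higher at 12 weeks by unadjusted p and 0 were lower, and their part in other differences was not tested. The medians of the arrays over genes differed by at most 0.064, and arrays correlated with each other at 0.988 to 0.993. The upper quartile over genes was 7.72 and 7.60 in the LF-NP and LF-HP pools of 12 weeks and 7.62 and 7.75 in their HF-NP and HF-HP pools. In the same order it was 7.75, 7.72, 7.76 and 7.72 in the pools of 1 week. The LF-HP and HF-NP arrays of 12 weeks were thus lower among abundant genes than the other arrays.

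A single gene changed between 12 weeks and 1 week at an adjusted p under 0.05 (limma with protein and fat level as covariates, Benjamini-Hochberg over all genes). It was the zinc finger gene Zfp991, and it makes 0.00502% of the genes tested. The gene with the next smallest p had an adjusted p of 0.338, and raising the threshold to 0.25 added none, although 411 genes passed 0.25 when the 12-week HF-HP pool was left out. Without a correction, 482 genes lay higher at 12 weeks (2.42%) and 1056 lay lower (5.3%) with an unadjusted p under 0.05. When the arrays were quantile normalised once more over these genes, the same counts were 786 higher and 817 lower, so 51.0% of them were lower against 68.7% before. The excess of lower over higher values was thus not seen once the arrays had the same distribution. In all 4 diets 12 weeks lay above 1 week for 1067 genes (5.35%) and below it for 1765 (8.85%). The 4 pools of 12 weeks all lay above the 4 pools of 1 week for 0.692% of genes and all below them for 2.1%. These shares are the background for the counts of gene lists that follow.

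The median difference of all genes, 12 weeks minus 1 week, was -0.011 on the log2 scale, and it depended on the level. Over 4 equal classes by level it was 0.012 in the least abundant, 0.018 and -0.033 in the next ones and -0.054 in the most abundant class. In the most abundant class of 4985 genes, 114 were higher and 585 lower at 12 weeks by unadjusted p. In all 4 diets 349 of them were higher and 969 lower. All 12-week pools lay above the 1-week pools for 42 and below them for 254. These counts are the background for lists of abundant genes. With arrays quantile normalised again, the medians of the classes were at most 0.002 from 0. In the most abundant class 323 genes were then higher and 337 lower. A difference of more than 1 was found for 11 genes and one of more than 0.5 for 97.

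**Figure D1:**
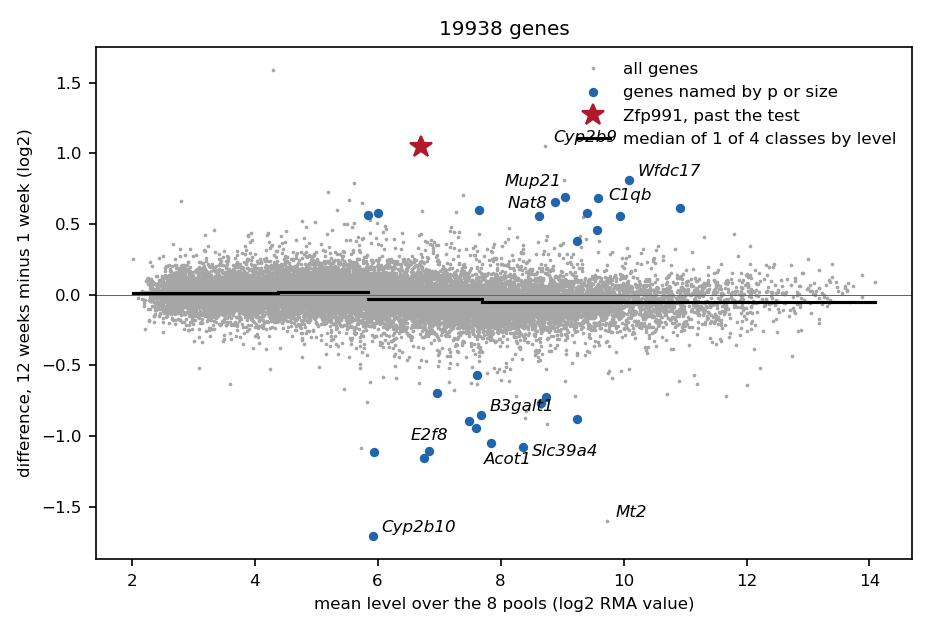
Difference between 12 weeks and 1 week (log2, vertical axis) against the mean level over the 8 pools (log2 RMA value, horizontal axis) for 19938 genes; black lines are the medians of 4 equal classes by level. The star is Zfp991, at a difference of 1.04, and the most abundant class has a median of -0.054.

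Over all genes, the duration accounted for 17.1% of the variance between the 8 pools, protein level for 25.5% and fat level for 10.9%. The interactions of duration took 9.73% with protein and 9.15% with fat. The interaction of protein and fat took 14.3% and that of all 3 took 13.3%, both more than fat level. Since each term has 1 degree of freedom of 7, an equal share would be 1 in 7. The shares are descriptions and not tests. Whether 12 weeks minus 1 week differed by protein or by fat level was tested as an interaction, and 0 genes passed for protein (0%) and 0 for fat (0%), with a smallest adjusted p of 1.0 for both in limma. The unadjusted p was under 0.05 for 523 genes for protein and for 445 genes for fat. Differences that follow in a single diet are values of 1 pool minus 1 pool and carry no test of their own.

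Zfp991 rose 2.06-fold, by 1.04 on the log2 scale (SE 0.06, adjusted p = 0.00638). It is annotated as a zinc finger protein, a member of a family of DNA-binding proteins whose many copies on mouse chromosome 4 arose by duplication. In the order LF-NP and LF-HP, then HF-NP and HF-HP, used here and in the rest of the text, the pools had 7.40, 6.80, 7.57 and 7.15 at 12 weeks and 6.34, 5.84, 6.45 and 6.12 at 1 week. Every 12-week pool lay above every 1-week pool, and the difference was 1.06, 0.96, 1.12 and 1.03 in the 4 diets. The diets kept the same order at both durations, and the differences spread less than the pools. The diets differed by protein level too. In the same fit Zfp991 was lower in HP than in NP pools by 0.46 (-0.46, SE 0.06, adjusted p = 0.0395), where 88 genes (0.441%) passed for protein. The call for duration was lost when any pool other than the LF-HP pool of 12 weeks was left out, with adjusted p of 0.0706 to 0.118, and kept without that pool (adjusted p = 0.0306). It was also lost without covariates (adjusted p = 0.687), in HP, NP, HF or LF pools alone, and in a fit over all 35556 probe sets (adjusted p = 0.0861). The difference itself was 1.00 to 1.08 with 1 pool left out, 1.04 without covariates and 1.00 to 1.09 in the HP, NP, HF or LF pools alone.

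Probe sets that several genes of the family share lay higher with it. The array has 5 probe sets that the annotation assigns to Zfp991 and to between 4 and 12 further genes, and 1 that 6 genes of the family share without Zfp991. All 6 lay higher at 12 weeks, by 0.73 to 1.06 on the log2 scale. They ranked 2 to 19 among all 35556 probe sets by p, but none passed there. Probe sets that were assigned to 1 gene of the region alone gave smaller differences. Zfp979 was higher by 0.67 (SE 0.16, adjusted p = 0.549), without overlap, and had 2.84, 2.67, 3.86 and 3.15 at 12 weeks and 2.39, 2.41, 2.61 and 2.44 at 1 week. Zfp982 and Zfp985 had differences of 0.31 and 0.27, Zfp980 and Zfp600 of 0.09 and 0.04, and Zfp933 of -0.02. The other neighbours Vps13d, Dhrs3, Tnfrsf1b, Tnfrsf8 and Miip had differences between -0.21 and 0.14, and the pseudogene Rps19-ps3 had -0.22. Single-gene probe sets of Zfp979, Zfp980, Zfp982, Zfp985 and Zfp600 had low levels, at most 4.51 as the mean of a group, and 4 of the 8 values of Zfp982 were the same. The probe set that passed the test is assigned to Zfp991 alone, and whether transcripts of near-identical copies add to its signal was not tested.

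Some of the copies were also compared before their starts. Of the 16 genes named on these probe sets, 10 had 1 promoter entry in RefSeq (GRCm38.p6), with entries of identical sequence kept once. Zfp991 had no entry and is not among them. Over the 250 bases before the start, the 45 pairs of the 10 genes were 56.0% to 94.1% identical (median 70.7%). Unrelated promoters were not compared. The closest pair was Rex2 and Zfp979, shown here on the gene's own strand. Capitals mark the longest run of letters both hold, 102 bases, which begins at position -250 from the start of Zfp979 and -244 from that of Rex2. Zfp979 lies at chr4:147642509-147642758 on the minus strand and Rex2 at chr4:147021600-147021849 on the plus strand.
Zfp979: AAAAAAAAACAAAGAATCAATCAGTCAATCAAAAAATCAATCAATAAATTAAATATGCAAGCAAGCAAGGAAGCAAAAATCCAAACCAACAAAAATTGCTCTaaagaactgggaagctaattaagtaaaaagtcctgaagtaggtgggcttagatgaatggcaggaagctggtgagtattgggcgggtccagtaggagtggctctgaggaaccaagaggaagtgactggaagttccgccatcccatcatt
Rex2: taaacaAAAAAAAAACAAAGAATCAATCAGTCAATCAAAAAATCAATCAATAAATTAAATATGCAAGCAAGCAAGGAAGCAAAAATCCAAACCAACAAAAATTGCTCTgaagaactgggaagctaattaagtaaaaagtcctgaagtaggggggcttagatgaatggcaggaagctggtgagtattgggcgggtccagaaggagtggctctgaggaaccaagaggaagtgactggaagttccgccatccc

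**Figure D2:**
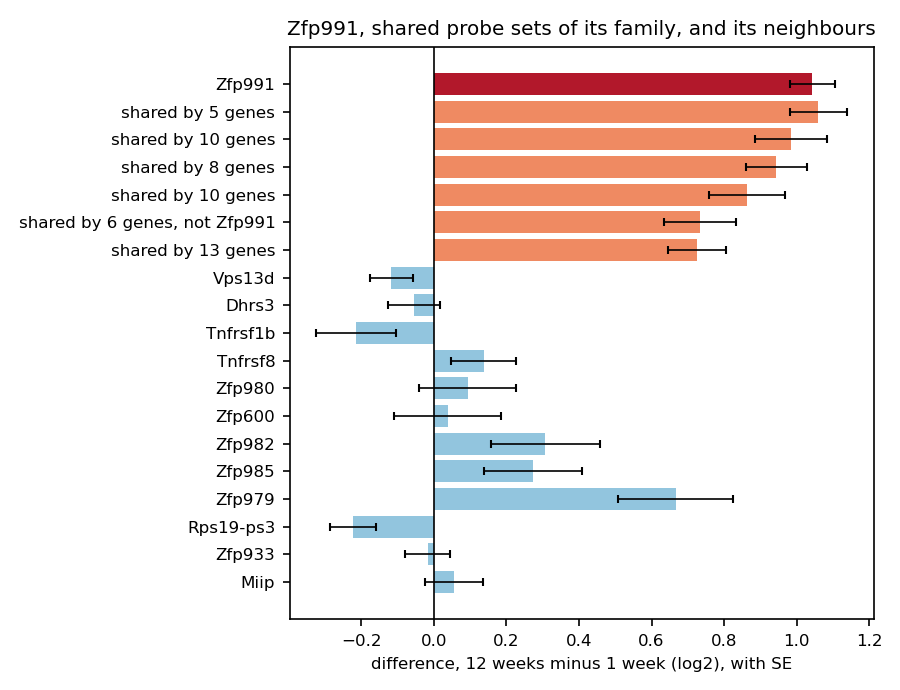
Difference between 12 weeks and 1 week (log2, horizontal axis, bars with the standard error of the fit) for Zfp991 (red), for probe sets shared by several genes of its family (orange) and for its nearest neighbours on the chromosome with a probe set of their own (blue). The shared probe sets lie at 0.73 to 1.06 beside 1.04 for Zfp991, and the neighbours between -0.22 and 0.67.

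The 6 genes with the next smallest p came next, none of them past the test (adjusted p 0.338 to 0.356). The receptor tyrosine kinase Epha2, which binds ephrins on neighbouring cells, had 7.48, 7.20, 7.41 and 7.27 at 12 weeks and 7.96, 7.66, 8.12 and 7.90 at 1 week. All 12-week pools were lower, with a difference of -0.57 (SE 0.07). The galactosyltransferase B3galt1 lay between 6.83 and 7.67 at 12 weeks and between 7.55 and 8.53 at 1 week. Its pools overlapped, since the HP diets were lower at both durations, but each diet lay lower at 12 weeks, by 0.85 on average (-0.85, SE 0.11). The ferritin receptor Scara5 had 6.38, 6.67, 6.66 and 6.76 at 12 weeks and 7.15, 7.48, 7.39 and 7.23 at 1 week (difference -0.69, SE 0.09). Its groups did not overlap.

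Higher values at 12 weeks were those of Srgn, Nat8 and Sdr9c7. Srgn, which encodes serglycin, the proteoglycan of the secretory granules of blood cells, had 9.75, 9.61, 9.97 and 9.85 at 12 weeks and 9.24, 9.09, 9.49 and 9.53 at 1 week (difference 0.46, SE 0.06). The N-acetyltransferase Nat8 had 9.24, 9.14, 9.43 and 9.06 at 12 weeks and 8.82, 8.20, 8.90 and 8.33 at 1 week (difference 0.66, SE 0.09). In both genes every 12-week pool lay above every 1-week pool. The short-chain dehydrogenase gene Sdr9c7 differed by 0.38 (SE 0.05) with overlapping pools.

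**Figure D3:**
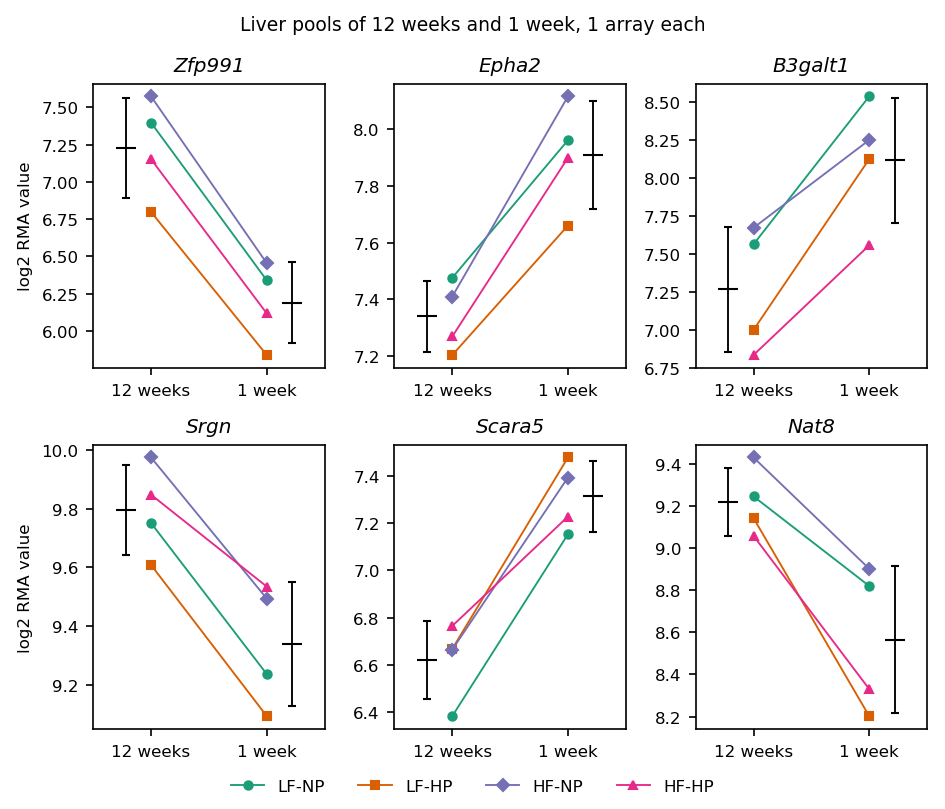
Log2 RMA values of Zfp991, Epha2, B3galt1, Srgn, Scara5 and Nat8 (vertical axes) in the 4 pools of 12 weeks and the 4 pools of 1 week, 1 array each; lines join the pools of 1 diet and black marks give the mean and SD of the 4 pools. Lines of Zfp991 run parallel at differences of 0.96 to 1.12, while those of Nat8 spread from 0.43 to 0.94.

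The largest differences were sought by a rule of size. It took genes whose mean over the 8 pools was at or above the median of all genes (5.85). They also had an unadjusted p under 0.01 and 1 sign in all 4 diets. There were 266 such genes, 65 higher and 201 lower at 12 weeks. Apart from Zfp991, none of the 12 of each direction named here passed the test. Higher at 12 weeks were the macrophage genes Wfdc17 (0.81), C1qb (0.68) and Vsig4 (0.58), the major urinary protein gene Mup21 (0.69), the small nucleolar RNA Snord57 (0.61), the C-mannosyltransferase Dpy19l3 (0.60), the rod transducin gene Gnat1 (0.58), Nat8, Tmem28 (0.56), AY036118 (0.56) and Gm10874 (0.56). Gnat1 and Tmem28 passed the level filter only through their 12-week pools, with means of 5.72 and 5.57 at 1 week. Dpy19l3 had 7.54, 8.11, 7.48 and 8.69 at 12 weeks and 7.19, 7.43, 7.07 and 7.71 at 1 week. It was higher in HP pools at both durations, so that the groups overlapped. Gm10874 had 10.13, 10.21, 10.40 and 10.16 at 12 weeks and 9.65, 9.64, 9.88 and 9.50 at 1 week, without overlap.

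Lower at 12 weeks were Cyp2b10 (-1.70), Cyp2a22 (-1.16), Fam107a (-1.11), E2f8 (-1.10), Slc39a4 (-1.08), Acot1 (-1.05), 9030619P08Rik (-0.94), Mir122 (-0.89), Acot2 (-0.88), B3galt1, Fkbp5 (-0.77) and Ppp1r3c (-0.73). Cyp2b10 and Fam107a passed the level filter only through their 1-week pools, with means of 5.07 and 5.39 at 12 weeks. Cyp2b10, the cytochrome P450 that phenobarbital-like compounds induce through the receptor CAR, had 4.50, 4.82, 5.19 and 5.77 at 12 weeks and 5.10, 8.12, 6.43 and 7.45 at 1 week. The 1-week LF-HP pool was the highest and the difference in its diet the largest (-3.29), against -0.60 in LF-NP. A related gene outside the rule and named after its values were seen, Cyp2b9, had a difference of 1.05 (SE 0.51, adjusted p = 0.67), with 1.51, 0.92, 2.38 and -0.61 in the 4 diets. Also named afterwards, the mucosal scavenger protein gene Dmbt1 had the largest positive difference of all genes, 1.59 (SE 0.92, adjusted p = 0.703), which came from 1 pool. It had 8.93, 3.73, 3.73 and 3.96 at 12 weeks and 3.73, 3.34, 3.55 and 3.37 at 1 week, so that the 12-week LF-NP pool alone stood out.

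The zinc importer Slc39a4 (ZIP4) was lower in every diet, with 8.16, 7.68, 7.94 and 7.55 at 12 weeks and 8.80, 8.72, 8.85 and 9.28 at 1 week (difference -1.08, SE 0.16, adjusted p = 0.356). The groups did not overlap. E2f8, an atypical E2F repressor that takes part in the polyploidisation of hepatocytes, had 6.72, 6.28, 6.74 and 5.39 at 12 weeks and 7.54, 7.03, 7.47 and 7.50 at 1 week (difference -1.10, SE 0.22, adjusted p = 0.499). The HF-HP pool of 12 weeks was the lowest of the 8. The metallothionein Mt2, which binds zinc and is induced by zinc and glucocorticoids, had 8.67, 8.21, 9.21 and 9.65 at 12 weeks and 10.28, 12.17, 9.06 and 10.63 at 1 week. Its difference was -1.60 (SE 0.55, adjusted p = 0.582), and it turned sign in the HF-NP diet.

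Fkbp5 and Fam107a, which glucocorticoids are known to induce, were highest in the 1-week LF-HP pool. Fkbp5, a co-chaperone of the glucocorticoid receptor, had 8.19, 8.24, 8.09 and 8.59 at 12 weeks and 8.72, 9.84, 8.85 and 8.77 at 1 week. Fam107a had 5.57, 5.67, 5.35 and 4.98 at 12 weeks and 5.86, 7.64, 6.19 and 6.32 at 1 week. In both the groups did not overlap, and in both the LF-HP pool stood above the other 1-week pools. Without that pool the differences were -0.51 for Fkbp5, -0.76 for Fam107a and -1.20 for Cyp2b10, against -0.77, -1.11 and -1.70 with it. The glycogen-targeting subunit Ppp1r3c had 8.59, 8.17, 8.47 and 8.30 at 12 weeks and 8.82, 9.16, 9.57 and 8.88 at 1 week (difference -0.73, SE 0.15), without overlap and with the highest value in the 1-week HF-NP pool.

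Markers of Kupffer cells and macrophages lay higher at 12 weeks. Of 29 markers, 9 were higher with an unadjusted p under 0.05 and 0 were lower, against 2.42% and 5.3% of all genes, and 14 were higher in all 4 diets with 0 lower (5.35% and 8.85% of all genes). None passed the test. The median difference was 0.163, against -0.011 over all genes, and 0.220 with arrays quantile normalised again, where 12 were higher and 1 was lower. The complement component C1qb, which Kupffer cells make, had 9.95, 9.55, 10.22 and 10.00 at 12 weeks and 9.12, 8.82, 9.31 and 9.74 at 1 week (difference 0.68, SE 0.13, adjusted p = 0.499). Vsig4, the complement receptor of Kupffer cells, had 9.82, 9.31, 9.94 and 9.74 at 12 weeks and 9.10, 8.67, 9.08 and 9.64 at 1 week. In both genes the 1-week HF-HP pool was close to its 12-week counterpart, and the difference in that diet was 0.26 for C1qb and 0.09 for Vsig4.

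The other subunits of C1q had smaller differences. C1qc had a difference of 0.32 (SE 0.13) and C1qa of 0.14 (SE 0.09). The lysosomal protein Cd68 had 7.97, 7.48, 7.99 and 8.01 at 12 weeks and 7.49, 6.98, 7.37 and 7.90 at 1 week, a difference of 0.43. The phosphatidylserine receptor Timd4, found on long-lived Kupffer cells, differed by 0.33 and the Fc receptors Fcgr3 and Fcgr1 by 0.33 and 0.30. Fcgr1 was the 1 marker of the list whose pools did not overlap (0.692% of all genes lay apart in this direction). The Kupffer cell lectin Clec4f differed by 0.16, Adgre1, which encodes the F4/80 antigen, by 0.20, and the monocyte-derived macrophage markers Ccr2, Cx3cr1, Itgax and Trem2 by 0.02, -0.01, -0.12 and -0.02. The mean level of the 29 markers was 7.07, 6.74, 7.04 and 7.07 at 12 weeks and 6.74, 6.53, 6.76 and 7.07 at 1 week. In liver as a whole, more cells of a type and more RNA per cell cannot be told apart.

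Wfdc17, which encodes a whey acidic protein made by activated macrophages and stood outside the list, had 10.53, 10.14, 10.59 and 10.73 at 12 weeks and 9.47, 9.28, 9.84 and 10.17 at 1 week (difference 0.81, SE 0.13, adjusted p = 0.356). The pools overlapped only through the 1-week HF-HP pool, which lay above the 12-week LF-HP pool. The PU.1 core GAGGAAGT was searched on both strands of the 250 bases before the start. It was found in 1 of the 23 macrophage markers with a promoter entry (C1qc). That is a share of 4.35%, against 2.79% of the 27025 genes with an entry.

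**Figure D4:**
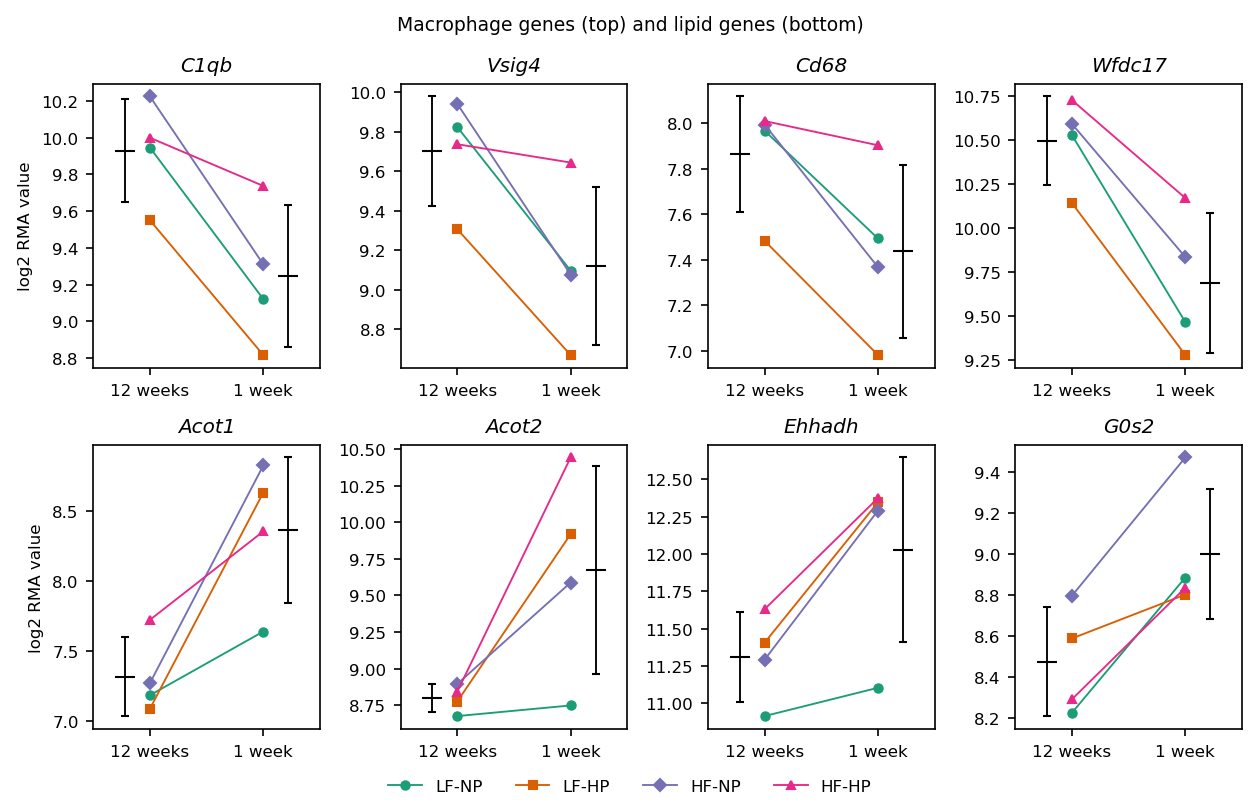
Log2 RMA values (vertical axes) of 4 macrophage genes (top) and 4 lipid genes (bottom) in the 4 pools of 12 weeks and the 4 pools of 1 week, joined by diet, with the mean and SD of the 4 pools in black. The HF-HP lines of C1qb and Vsig4 are the flattest, with differences of 0.26 and 0.09, and Acot1 and Ehhadh lie lower at 12 weeks on every diet.

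Cells that lie beside the macrophages gave smaller differences. Of 18 endothelial markers, 4 were higher with an unadjusted p under 0.05 and 0 lower (2.42% and 5.3% of all genes). Their median was 0.079. The sinusoidal Fc receptor Fcgr2b had 9.56, 9.36, 9.47 and 9.53 at 12 weeks and 9.14, 9.01, 9.16 and 9.26 at 1 week, a difference of 0.34 (SE 0.07, adjusted p = 0.499) without overlap. The sinusoidal lectin Clec4g and the cadherin Cdh5 had differences of 0.34 and 0.29, while Lyve1 and Stab1, also of the sinusoid, had -0.22 and -0.12. A weak second probe set of Clec4g had -0.01. Genes of MHC class II, which present peptides on macrophages, dendritic cells and B cells, had a median of 0.086 over 15 members. By unadjusted p 4 were higher and 0 lower (2.42% and 5.3% of all genes). Cd74, the invariant chain, had a difference of 0.44, 0.56, 0.30 and -0.08 in the 4 diets, and H2-Aa of 0.62, 0.43, 0.45 and -0.17. In both, the sign turned in the HF-HP diet alone.

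Stellate cell and fibroblast markers had a median of 0.109 over 14 genes. By unadjusted p 2 were higher and 0 lower (2.42% and 5.3% of all genes), and 5 were higher with arrays quantile normalised again. The smooth muscle actin Acta2 was among the higher ones (0.43, SE 0.16). Collagens and matrix genes, which such cells make when activated, had few differences. By unadjusted p 0 of 35 were higher and 3 were lower (2.42% and 5.3% of all genes). The median was -0.018 (3 higher, 2 lower and 0.012 with arrays quantile normalised again), and Col1a1, Col1a2 and Col3a1 had -0.07, -0.09 and -0.07. The matricellular genes Ccn2, Sparc and Fstl1 were the lower ones (-0.30, -0.22 and -0.21). B cells (median 0.069, 20 genes), T and NK cells (0.029, 26 genes) and neutrophils (-0.001, 17 genes) had 1 gene each with an unadjusted p under 0.05, the higher Jchain, Pdcd1 and Csf3r. Hepatocyte markers had a median of 0.03 over 21 genes, with 0 of unadjusted p under 0.05 in either direction. Of 35 chemokines and receptors, 1 was higher and 2 were lower by unadjusted p (2.42% and 5.3% of all genes), with a median of 0.04. The higher one, the B cell attractant Cxcl13, had 7.25, 6.64, 7.01 and 7.20 at 12 weeks and 6.07, 6.38, 6.36 and 6.92 at 1 week. Its difference was 0.59 (SE 0.18). The lower ones were Ccl9 (-0.41, SE 0.09), without overlap, and Cxcl9 (-0.17, SE 0.06). Interferon-inducible genes (35) had a median of -0.004 and 28 acute phase genes one of -0.032.

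Genes of fatty acid oxidation and other PPARA targets lay lower at 12 weeks, the lowest median of all lists. Of 34 genes, 14 were lower and 0 were higher with an unadjusted p under 0.05 (5.3% and 2.42% of all genes). In all 4 diets 17 were lower with 0 higher (8.85% and 5.35% of all genes). In 5 every 12-week pool lay below every 1-week pool (2.1% of all genes). None passed the test. The median was -0.199, and -0.150 with arrays quantile normalised again, where 11 were lower and 0 higher. By diet the medians were -0.072 in LF-NP, -0.267 in LF-HP, -0.293 in HF-NP and -0.160 in HF-HP. The LF-NP diet gave the smallest shift. In the most abundant class of genes, with a median level of 8.85 beside 10.55 for this list, 585 of 4985 were lower by unadjusted p. There 969 lay lower in all 4 diets and 254 without overlap.

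The acyl-CoA thioesterases Acot1 of the cytosol and Acot2 of mitochondria led the list. Acot1 had 7.18, 7.09, 7.27 and 7.72 at 12 weeks and 7.64, 8.63, 8.82 and 8.35 at 1 week (difference -1.05, SE 0.21, adjusted p = 0.499). Acot2 had 8.67, 8.77, 8.89 and 8.84 at 12 weeks and 8.75, 9.92, 9.59 and 10.44 at 1 week (difference -0.88, SE 0.22). In both genes the 1-week LF-NP pool lay near the 12-week pools and the other 1-week pools stood above them. The week 0 pool, also of LF-NP mice, had 8.51 for Acot1 and 9.32 for Acot2, above the 1-week LF-NP pool.

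In the same list the peroxisomal bifunctional enzyme Ehhadh had 10.91, 11.41, 11.29 and 11.63 at 12 weeks and 11.10, 12.35, 12.29 and 12.38 at 1 week (difference -0.72, SE 0.17). The fatty acid omega-hydroxylase Cyp4a10 had 11.12, 11.87, 11.65 and 12.10 at 12 weeks and 11.63, 12.65, 12.46 and 12.56 at 1 week (difference -0.64, SE 0.13). Both had their lowest 1-week value in the LF-NP pool. The medium-chain dehydrogenase Acadm and the carnitine carrier Slc25a20 had smaller differences (-0.23 and -0.20), and the entry enzyme Cpt1a, the receptor Ppara and the coactivator Ppargc1a had -0.05, -0.09 and -0.03. The fatty acid binding protein Fabp1 had -0.03. It was the 1 member of 28 with a promoter entry that held the letters AGGNCA in direct repeat with 1 base between the copies, the form that PPARA binds, in the 250 bases before its start on either strand. That is 3.57% of the 28, against 0.4% of the 27025 genes with a promoter entry. Of 20 lipid droplet genes with an entry, 0 held the repeat. For Fabp1 the repeat is shown in capitals on the minus strand of chr6:71199629-71199878, which is printed on the plus strand.
Fabp1: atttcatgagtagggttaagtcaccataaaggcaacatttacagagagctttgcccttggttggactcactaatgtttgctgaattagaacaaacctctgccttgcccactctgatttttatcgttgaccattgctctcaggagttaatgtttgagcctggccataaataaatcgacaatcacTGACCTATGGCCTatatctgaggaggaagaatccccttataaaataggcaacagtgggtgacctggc

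Genes of the lipid droplet also lay lower at 12 weeks. Of 26, 7 were lower and 0 were higher with an unadjusted p under 0.05 (5.3% and 2.42% of all genes). The median was -0.133 (-0.079 with arrays quantile normalised again, where 5 were lower and 0 higher). G0s2, an inhibitor of the triglyceride lipase Pnpla2, had 8.23, 8.59, 8.80 and 8.29 at 12 weeks and 8.89, 8.80, 9.47 and 8.84 at 1 week (difference -0.52, SE 0.15, adjusted p = 0.564). The groups did not overlap, although the highest 12-week and the lowest 1-week value nearly met. The lipase Pnpla2 itself had -0.24, and the droplet coats Plin5, Plin4 and Plin2 had -0.39, -0.28 and -0.23. Angptl4, a secreted inhibitor of lipoprotein lipase that PPARA induces, belongs to another list, that of apolipoproteins and VLDL assembly. It had 9.68, 9.07, 9.67 and 9.58 at 12 weeks and 9.77, 10.11, 10.30 and 9.97 at 1 week (difference -0.54). Of the 26 genes of its list, 2 were lower and 0 higher by unadjusted p, with a median of -0.009. The scavenger receptor Cd36 had -0.10, and the fat-storage receptor Pparg had 0.16.

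Genes of fat synthesis differed in both directions. Of 22 genes, 2 were higher and 4 were lower by unadjusted p (2.42% and 5.3% of all genes), with a median of 0.002. With arrays quantile normalised again 4 were higher and 2 were lower. The fatty acid synthase Fasn had 12.19, 12.36, 12.06 and 11.45 at 12 weeks and 11.95, 11.07, 11.92 and 11.41 at 1 week (difference 0.43, SE 0.19). Most of it lay in the LF-HP diet, with 1.29, against 0.24, 0.14 and 0.04 in the others. Its activator Srebf1 followed the same order, with 0.85 in LF-HP and 0.16, 0.16 and 0.11 elsewhere. The regulators Insig2, which holds SREBP proteins in the endoplasmic reticulum, and Lpin1, a phosphatidate phosphatase, had -0.70 (SE 0.17) and -0.61 (SE 0.13), and in both every 12-week pool lay below every 1-week pool.

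Genes of cholesterol synthesis and the LDL receptor had a median of -0.156 over 20 genes. By unadjusted p 4 were lower and 1 was higher (5.3% and 2.42% of all genes). When arrays were quantile normalised again, the median was -0.103, with 1 lower and 1 higher. The diets differed in sign, with medians of -0.034 in LF-NP, 0.151 in LF-HP, -0.317 in HF-NP and -0.275 in HF-HP. The farnesyl-diphosphate farnesyltransferase Fdft1 was the higher one (0.29), and Nsdhl, Ebp, Srebf2 and Fdps were the lower ones.

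**Figure D5:**
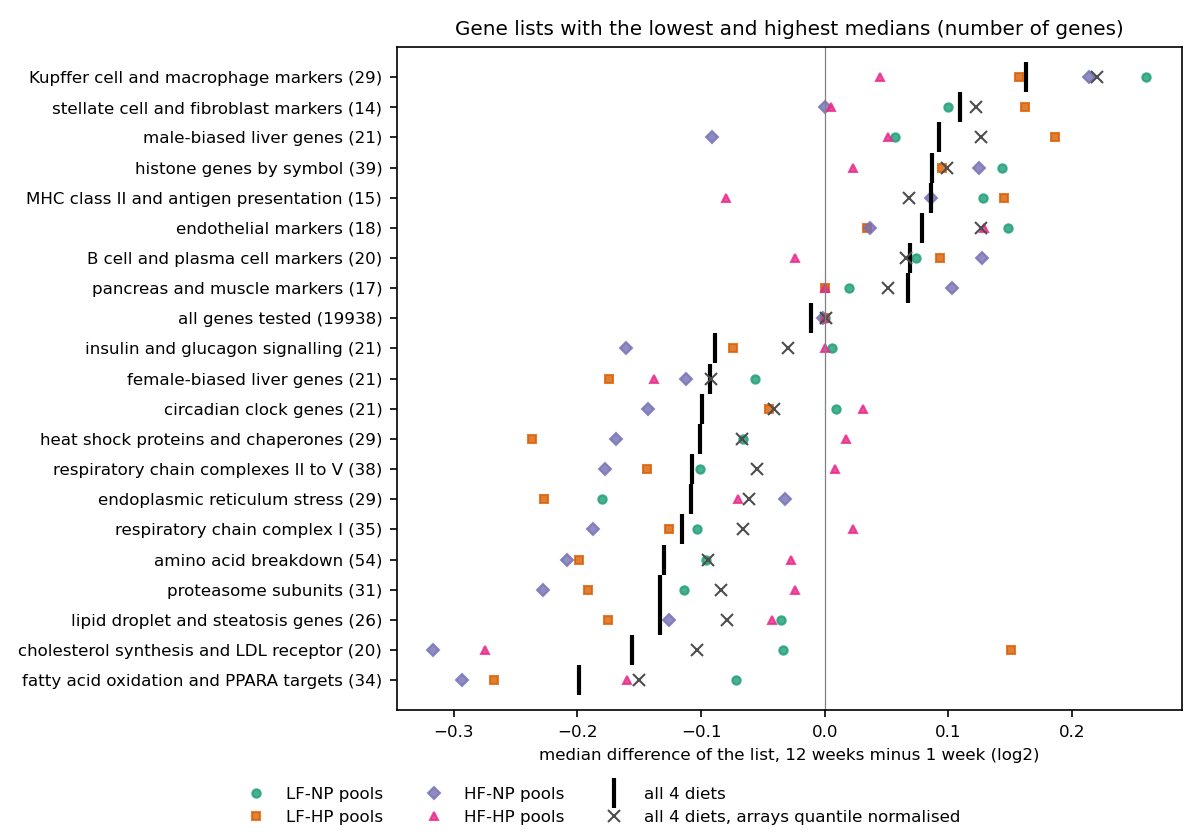
Median difference between 12 weeks and 1 week (log2, horizontal axis) of gene lists of at least 14 genes, the 12 lowest and the 8 highest with all genes between them; coloured points are single diets, black bars the fit over all 4 diets and crosses the fit after another quantile normalisation. Fatty acid oxidation and PPARA targets lie lowest at -0.199 and Kupffer cell and macrophage markers highest at 0.163.

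Enzymes of amino acid breakdown lay lower at 12 weeks. Of 54 genes, 19 were lower and 0 were higher by unadjusted p (5.3% and 2.42% of all genes). In all 4 diets 23 were lower with 0 higher (8.85% and 5.35% of all genes). The median was -0.130, and -0.094 with arrays quantile normalised again, where 17 were lower. By diet the medians were -0.096 in LF-NP, -0.199 in LF-HP, -0.208 in HF-NP and -0.027 in HF-HP. The most abundant class of genes had a median level of 8.85, beside 10.86 for this list. In that class 585 of 4985 genes were lower by unadjusted p and 969 lay lower in all 4 diets. The cytosolic aspartate aminotransferase Got1 had 11.70, 12.31, 11.08 and 12.73 at 12 weeks and 12.11, 12.91, 11.96 and 12.91 at 1 week. The HP pools were the higher ones at both durations, and every diet lay lower at 12 weeks. The cystathionine lyase Cth (-0.33), the methylcrotonyl-CoA carboxylase subunit Mccc1 (-0.27), the glycine decarboxylase Gldc (-0.26), the alanine aminotransferase Gpt (-0.25) and the methylmalonyl-CoA mutase Mmut (-0.21) were also lower by unadjusted p. Urea cycle genes had 0 of 8 past an unadjusted p of 0.05 in either direction, with a median of -0.082.

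Mitochondrial and proteasomal genes, which are abundant in liver, lay lower by small amounts in 3 of the diets and near 0 in HF-HP, where the medians of complex I, complexes II to V and the proteasome were 0.023, 0.008 and -0.024. Of all genes, 5.3% were lower and 2.42% higher by unadjusted p. Complex I of the respiratory chain had 12 lower and 0 higher of 35 (median -0.115). Complexes II to V had 9 lower and 1 higher of 38 (median -0.107). Proteasome subunits had 13 lower and 0 higher of 31 (median -0.133). With arrays quantile normalised again, the same counts were 8 and 2, 6 and 1, and 5 and 0, and the medians were -0.066, -0.055 and -0.084. The most abundant class of genes had a median of -0.054 before and 0.002 after that step. In it 585 of 4985 genes were lower by unadjusted p before and 337 after. The median levels of the 3 lists (9.92, 11.03 and 9.07) are above that of this class (8.85).

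The values of single subunits were close together. The proteasome alpha subunit Psma5 had 7.68, 7.41, 7.54 and 7.43 at 12 weeks and 7.77, 7.75, 7.97 and 7.73 at 1 week (difference -0.29, SE 0.07). Uqcr11 of complex III had 10.84, 11.03, 10.67 and 11.04 at 12 weeks and 11.21, 11.38, 11.19 and 11.22 at 1 week (difference -0.36, SE 0.07, adjusted p = 0.467). Both groups were free of overlap. The ATP synthase subunit Atp5k had -0.60 (SE 0.11), and the complex I subunits Ndufb2, Ndufc2, Ndufa4 and Ndufa10 had -0.26, -0.26, -0.28 and -0.21.

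Chaperones had 7 lower and 0 higher of 29 (median -0.101) by unadjusted p. Genes of endoplasmic reticulum stress had 5 lower and 0 higher of 29 (median -0.108), against 5.3% and 2.42% of all genes. With arrays quantile normalised again, 6 chaperones were lower and 1 higher, and 3 genes of endoplasmic reticulum stress were lower and 0 higher. In the most abundant class, 585 of 4985 genes were lower before that step and 337 after. Its median level was 8.85, beside 9.54 for chaperones and 9.89 for genes of endoplasmic reticulum stress. The HF-HP diet stood apart for chaperones, with a median of 0.017 against -0.066, -0.237 and -0.169 in the others. The mitochondrial chaperonin Hspd1 (-0.20), the endoplasmic reticulum chaperone Hspa5 (-0.27) and its partner Dnajc3 (-0.23) were among them. The cytosolic ribosomal proteins had a median of -0.054, equal to that of the most abundant class.

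Of the 21 genes listed as higher in male liver, 4 were higher and 3 were lower at 12 weeks by unadjusted p (2.42% and 5.3% of all genes). Their median was 0.092. Of 21 genes that are higher in female liver, 0 were higher and 4 were lower, with a median of -0.093. Mup21 had 9.43, 9.59, 9.57 and 9.00 at 12 weeks and 9.07, 8.56, 9.16 and 8.04 at 1 week (difference 0.69, SE 0.17, adjusted p = 0.564). The complement regulator Susd4 had a difference of 0.45, the organic anion transporter Slco1a1 of 0.30 and the steroid dehydrogenase Hsd3b5 of 0.22. The 3 genes of the male list that lay lower were Cyp4a10, which is also in the list of PPARA targets, Selenbp2 (-0.63) and Ces2b (-0.32). The flavin monooxygenases Fmo2, Fmo4 and Fmo1 of the female-biased list were lower in every diet, with -0.71, -0.43 and -0.19. Fmo2 had 7.91, 8.15, 7.49 and 8.05 at 12 weeks and 8.25, 9.39, 8.38 and 8.44 at 1 week. Cyp2b10 and Cyp2b9, in opposite directions above, are members of the female-biased list too.

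The growth hormone axis itself had few differences. Socs2, a feedback inhibitor that growth hormone induces through STAT5, had 8.49, 8.11, 7.23 and 8.03 at 12 weeks and 9.30, 8.47, 8.46 and 9.12 at 1 week (difference -0.87, SE 0.28, adjusted p = 0.576). Its second probe set had -0.41. The insulin-repressed binding protein Igfbp1 had 8.58, 7.77, 7.60 and 9.08 at 12 weeks and 9.04, 9.51, 8.51 and 9.13 at 1 week (difference -0.79). The hormone Igf1, its carrier Igfals and the receptor Ghr had 0.00, 0.05 and 0.11. The oestrogen receptor Esr1, of the nuclear receptor list, had 7.91, 7.63, 7.81 and 7.77 at 12 weeks and 8.62, 8.07, 8.55 and 8.04 at 1 week (difference -0.54, SE 0.09, adjusted p = 0.434). Its 12-week pools lay below all 1-week pools.

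Of 21 clock genes, Dbp and Nr1d1 were higher at 12 weeks and Rora, Cry1 and Cry2 lower by unadjusted p. Of all genes, 2.42% were higher and 5.3% lower. Dbp, a transcription factor whose RNA cycles steeply through the day, had 8.38, 8.81, 8.30 and 8.39 at 12 weeks and 8.16, 8.16, 7.84 and 8.09 at 1 week (difference 0.41, SE 0.08, adjusted p = 0.499). The repressor Nr1d1 had 8.57, 8.38, 8.47 and 8.77 at 12 weeks and 8.33, 8.30, 7.79 and 8.34 at 1 week (difference 0.35, SE 0.14). Neither gene overlapped between the groups. Their opposite in phase, Arntl, which encodes BMAL1, had -0.28, with 0.00, -0.61, -0.60 and 0.10 in the 4 diets. A difference in the hour of sampling between the groups was not tested.

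Of 25 immediate early genes, which stress and growth factors induce within minutes, 4 were lower and 1 was higher (Junb, 0.24) by unadjusted p. Of all genes, 5.3% were lower and 2.42% higher. The MAP kinase phosphatase Dusp1 had 9.53, 9.35, 9.45 and 9.52 at 12 weeks and 9.77, 9.89, 10.23 and 10.20 at 1 week (difference -0.56, SE 0.09, adjusted p = 0.356). The DNA damage response gene Gadd45b had 5.48, 5.42, 5.43 and 5.47 at 12 weeks and 5.82, 6.72, 6.21 and 6.09 at 1 week (difference -0.76, SE 0.16). In both genes the 12-week pools lay close together, below all 1-week pools. The early genes Btg2, Klf10 and Atf3 had -0.43, -0.40 and -0.29, while Fos, Egr1 and Jun had 0.17, 0.18 and -0.19. The senescence marker Cdkn2a had 0.22, Cdkn2b had 0.03 and Glb1 had -0.01.

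Cell cycle genes had a median of -0.089 over 39, with 2 lower (Rrm2 and Cdc45) and 0 higher by unadjusted p, and cyclin D1 (Ccnd1), Cdk1 and Mki67 had -0.27, -0.21 and -0.17. Histone genes lay higher, with 8 higher and 0 lower of 39 (2.42% and 5.3% of all genes). Their median was 0.087 (0.099 with arrays quantile normalised again). The linker histone H1f3 had 4.34, 4.91, 4.13 and 5.58 at 12 weeks and 3.86, 4.39, 4.03 and 4.88 at 1 week, higher in HP pools at both durations (difference 0.45). The core histone H2bc14 had a difference of 0.34 without overlap. Cytochromes P450 of families 1 to 3 were near the background, with 2 higher and 4 lower of 48 and a median of 0.012.

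Genes of sugar metabolism differed in both directions. Of 26 genes of glycolysis, gluconeogenesis and glycogen, 5 were higher and 3 were lower by unadjusted p (2.42% and 5.3% of all genes). Their median was -0.011. The 5 higher ones were the pyruvate kinase Pklr (0.41), the UDP-glucose pyrophosphorylase Ugp2 (0.26) and 3 genes of fructose use, the transporter Slc2a5 (0.23), the ketohexokinase Khk (0.21) and the triokinase Tkfc (0.20). Pklr had 11.91, 11.25, 11.73 and 11.13 at 12 weeks and 11.96, 10.58, 11.35 and 10.50 at 1 week (SE of the difference 0.13). Of 23 genes of iron handling, 1 was higher and 5 were lower by unadjusted p (2.42% and 5.3% of all genes). The higher one was the iron hormone hepcidin, Hamp, with 12.11, 12.12, 12.63 and 12.09 at 12 weeks and 11.78, 11.41, 12.16 and 12.21 at 1 week (difference 0.35). Smad7 and Atoh8, which like Hamp are induced by BMP signals in hepatocytes, had -0.26 and -0.48.

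Among small RNA genes on the array, that of the most abundant hepatocyte miRNA, Mir122, had 7.12, 7.62, 7.03 and 6.39 at 12 weeks and 7.89, 8.10, 8.25 and 7.48 at 1 week (difference -0.89, SE 0.23, adjusted p = 0.564). Over 291 miRNA genes the median was 0.005, with 6 higher and 11 lower by unadjusted p (2.42% and 5.3% of all genes). Mir135a-1 had 4.56, 4.31, 4.43 and 4.41 at 12 weeks and 4.11, 3.95, 4.25 and 3.91 at 1 week (difference 0.37), without overlap. Mir101b had a difference of -0.52 and Mir185 one of -0.33. These probe sets read the miRNA genes and were not a measure of the mature miRNAs. The RefSeq mature sequences (GRCm38.p6) of Mir135a-1 at chr9:106154140-106154162 and chr9:106154179-106154200 on the plus strand, Mir185 at chr16:18327405-18327425 on the minus strand and Mir101b at chr19:29135302-29135324 and chr19:29135338-29135356 on the plus strand are given, as the RNAs these genes make, with the seed (bases 2 to 8) in capitals. For Mir185 only the 3p sequence is given. No seed is shared between the sequences given.
mmu-miR-135a-5p: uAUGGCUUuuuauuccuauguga
mmu-miR-135a-1-3p: uAUAGGGAuuggagccguggcg
mmu-miR-185-3p: aGGGGCUGgcuuuccucuggu
mmu-miR-101b-5p: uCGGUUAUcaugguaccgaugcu
mmu-miR-101b-3p: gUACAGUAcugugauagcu

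Among 51 small nucleolar RNA genes, 3 were higher and 6 were lower by unadjusted p (2.42% and 5.3% of all genes). Snord57 had 11.35, 10.93, 11.48 and 11.15 at 12 weeks and 10.27, 10.63, 10.61 and 10.93 at 1 week. Snord42a had 6.26, 6.02, 6.36 and 5.92 at 12 weeks and 5.76, 5.67, 5.62 and 5.38 at 1 week (difference 0.53, SE 0.08, adjusted p = 0.356), without overlap. Olfactory and vomeronasal receptors, which hepatocytes do not use, serve as a list at the floor of the array, with 23 higher and 19 lower of 1192 and a median of 0.009.

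The week 0 pool, of LF-NP mice after the run-in, was compared in level only. For 57.0% of all genes its value was nearer to the 1-week mean than to the 12-week mean. Among the 28 genes named by p or by size, 23 were nearer to the 1-week mean. Zfp991 had 6.18 at week 0, where the 1-week mean was 6.19 and the 12-week mean 7.23. The 5 genes nearer to the 12-week mean were Mup21, Snord57, AY036118, Gm10874 and Cyp2b10. Of the 28, 13 had a week 0 value outside the range of both means, such as C1qb with 9.16 beside 9.25 and 9.93 at 1 and 12 weeks. With 1 pool at week 0 there is no error and no test.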

How the data were processed

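The deposited table holds log2 expression values that the authors made by robust multi-array averaging (RMA), 1 column for each of 9 pools and 35556 probe sets. The study's methods name probe sets redefined by Entrez Gene, whereas the rows carry the array's own transcript cluster identifiers, so the probe set definition is unsettled. The number of arrays limits the precision.

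The platform annotation gave 21789 probe sets 1 gene symbol, 1621 several and 12146 none. The brightest probe set of each gene was kept. Genes were tested with limma 3.58.1 in R 4.3.3, with duration, protein and fat level as terms (4 residual degrees of freedom) and Benjamini-Hochberg adjustment. Pools of different diets served as replicates, so that p-values do not measure the spread between mice. With protein and fat level as terms, the residual holds the interactions of duration, protein and fat beside noise. The fit was tested on simulated data. Genes were named by p (all past 0.05 and the next 6), by size (12 in each direction) and as up to 4 members of a list with an unadjusted p under 0.05. Further members were named for their known role with their values known. The members and lists were chosen with earlier results of these data known. Promoter and miRNA sequences are from RefSeq (GRCm38.p6). Alternatives were a fit without covariates or with diet as a block, single protein or fat levels, left-out pools, filters, weights, centring, another quantile normalisation and all probe sets. Tables were handled in Python 3.11.15 with pandas 2.3.3.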

Additional observations from a re-analysis of the deposited data

Results flagged for a closer look

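Of 362 groups of 4 pools, those of the named genes at each duration, 24 (6.63%) had 1 pool far from the others by Dixon's criterion. Chance gives about 5% for samples of 1 kind. The 4 pools here are of different diets and no diet term was removed, so that rate does not apply. An effect of diet and a stray pool cannot be told apart. Values are log2 levels, each with that of the nearest other pool of its group. The HF-NP pool of 12 weeks was high for AY036118 (9.21, next 8.83), Hamp (12.63, next 12.12) and Abcc3 (10.15, next 9.89). The HF-HP pool of 12 weeks was high for Ccn2 (8.61, next 8.12). The LF-HP pool of 1 week was high for Fkbp5 (9.84, next 8.85), Fmo2 (9.39, next 8.44), Ndufa4 (10.46, next 10.23) and Uqcr11 (11.38, next 11.22). The HF-NP pool of 1 week was high for G0s2 (9.47, next 8.89), Calr (11.96, next 11.78) and Psma5 (7.97, next 7.77).

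The LF-NP pool of 12 weeks was low for Nsdhl (8.47, next 9.05). The LF-HP pool of 12 weeks was low for Fstl1 (5.90, next 6.03) and Angptl4 (9.07, next 9.58). The HF-NP pool of 12 weeks was low for Car2 (5.57, next 6.19). The LF-NP pool of 1 week was low for Ccn2 (8.18, next 8.62), Jchain (3.33, next 3.60), Ehhadh (11.10, next 12.29) and Plin5 (8.42, next 8.86). The LF-HP pool of 1 week was low for E2f8 (7.03, next 7.47), Myl1 (2.72, next 3.08) and Rplp1 (12.05, next 12.16). The HF-NP pool of 1 week was low for Nr1d1 (7.79, next 8.30). The HF-HP pool of 1 week was low for Snord85 (6.07, next 6.28). The 1-week LF-HP pool was the one in 7 of the 24. No explanation was tested.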

How the results depend on the processing

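Zfp991 was the 1 gene past the test also with diet as a block, an intensity trend, a robust prior, array weights, centred arrays, the mean of a gene's probe sets, genes at or above the median level, and another quantile normalisation. The count was 0 without covariates, in HP, NP, HF or LF pools alone and over all probe sets, and 0 to 1 with 1 pool left out. Genes higher at 12 weeks by unadjusted p numbered 229 in HP pools, 185 in HF pools, 230 among genes at or above the median level, 786 after another quantile normalisation, 951 over all probe sets and 335 to 974 with 1 pool left out, against 482. Genes lower numbered 291 in HP pools, 299 in HF pools, 1590 over all probe sets and 600 to 1951 with 1 pool left out, against 1056. The highest counts, 974 and 1951, were those without the 12-week HF-HP pool. That pool had the lowest array weight (0.385), and without it 411 genes had an adjusted p under 0.25 against 1 with it. The interaction with protein gave 0 to 1 genes with 1 pool left out (1 without the 12-week HF-NP pool), and that with fat 0. Of 3774 values of named genes under alternatives, 0 reversed and 12 lost the call, all of them of Zfp991, whose difference stayed between 1.00 and 1.09. Zfp991 was the 1 gene with a call to lose. The named genes were chosen by p, size or sign in these same pools, so the 0 reversals are no separate check. Of 1217 medians of gene lists, 107 moved by more than their spread between diets, at most 11 under 1 alternative. The cause of these changes was not tested. The quantile normalisation and the fit over all probe sets were chosen after seeing the data.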
